A study of Mus musculus with 6 samples.

Results

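The synaptotagmins and the proteins that prime, clamp and recycle the exocytotic fusion machinery were examined in mGLUTag cells at 4 h and 16 h after synchronization. The list held 41 genes, and every row of the array table whose symbol, in capitals, was on the list was taken. Of these, 40 genes had at least 1 probe and SYTL1 had none, giving 70 probes of the 45281 on the array. Symbols are written here as the array table gives them. The genes were divided into 17 synaptotagmins, 5 synaptotagmin-like proteins, 5 Munc18 and syntaxin-binding proteins, 4 genes for NSF and its SNAP adaptors, 2 complexins and 8 priming and docking factors.

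mGLUTag cells model the GLP-1-secreting enteroendocrine L-cell and are 1 immortalized mouse line, derived from a colonic tumour of a mouse that carried a viral oncogene under the proglucagon promoter. Both groups were cells of this unmodified line that had been serum-starved, exposed to the adenylyl cyclase activator forskolin and returned to growth medium, and they differed only in the time of collection, 4 h (n = 3) or 16 h (n = 3). The study picked these times because Arntl mRNA, which encodes the clock factor BMAL1, peaks at the first and reaches its trough at the other, in order to find transcripts that link the clock to GLP-1 release. No unsynchronized sample was analysed here, and whether the samples of a time point came from separate cultures is not stated, so that the errors below may be technical.

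Hormone leaves an L-cell by regulated exocytosis. Dense-core granules are tethered and primed at the plasma membrane by Munc13, CAPS and RIM proteins, SNARE bundles are assembled under the guidance of Munc18 proteins and held by complexins, and calcium binding to synaptotagmins then triggers fusion. After fusion, the ATPase NSF and its SNAP adaptors take the spent SNARE bundles apart for another round. The synaptotagmins are membrane proteins with a tandem pair of C2 domains; some members are fast or slow calcium sensors and others do not bind calcium.

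The arrays differed in brightness. Mean intensity was between 291 and 354 at 4 h and between 216 and 246 at 16 h, so that the time points were compared on log2 values after quantile normalization, which reports each probe relative to the rest of its array. Between 16964 and 17847 probes of an array lay above its noise limit, set at the 99th percentile of the values below 0 with their sign turned (9.2 to 14 intensity units). A gene was taken as detected where a probe lay above this limit on 3 or more of the 6 arrays. The labelled cell type was checked against its markers. Of the L-cell and enteroendocrine markers, 10 of 12 were detected, GCG among them, while PCSK1 lay above the limit on 1 array and PYY on none. Of the markers of other cells, SLC5A1 (enterocyte), TFF3 and SPINK4 (goblet and Paneth), DCLK1 (tuft) and SYN1 (neuron) were detected. None of 3 measured endothelial markers and none of 3 measured leukocyte markers was detected, and of 5 measured fibroblast markers 1 (COL1A1) was.

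The first question was which paralogs the L-cell line transcribes. A total of 24 of the 40 measured genes were detected (60.0%), and 22 of these lay above the limit on all 6 arrays with at least 1 probe. By probe, 35 of 70 were detected, against 38.4% of all probes on the array. The probes listed under the symbols of the remaining 16 genes did not meet this rule, and in 13 of them no such probe exceeded the limit on any array. For SYT7, 1 of these 13, a probe under an older name did exceed it. The count of 24 was also obtained with a lower and with a higher percentile as the limit. Intensities of different probes depend on the probe as well as the transcript, so the levels of paralogs are not ranked against each other.

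**Figure D1:**
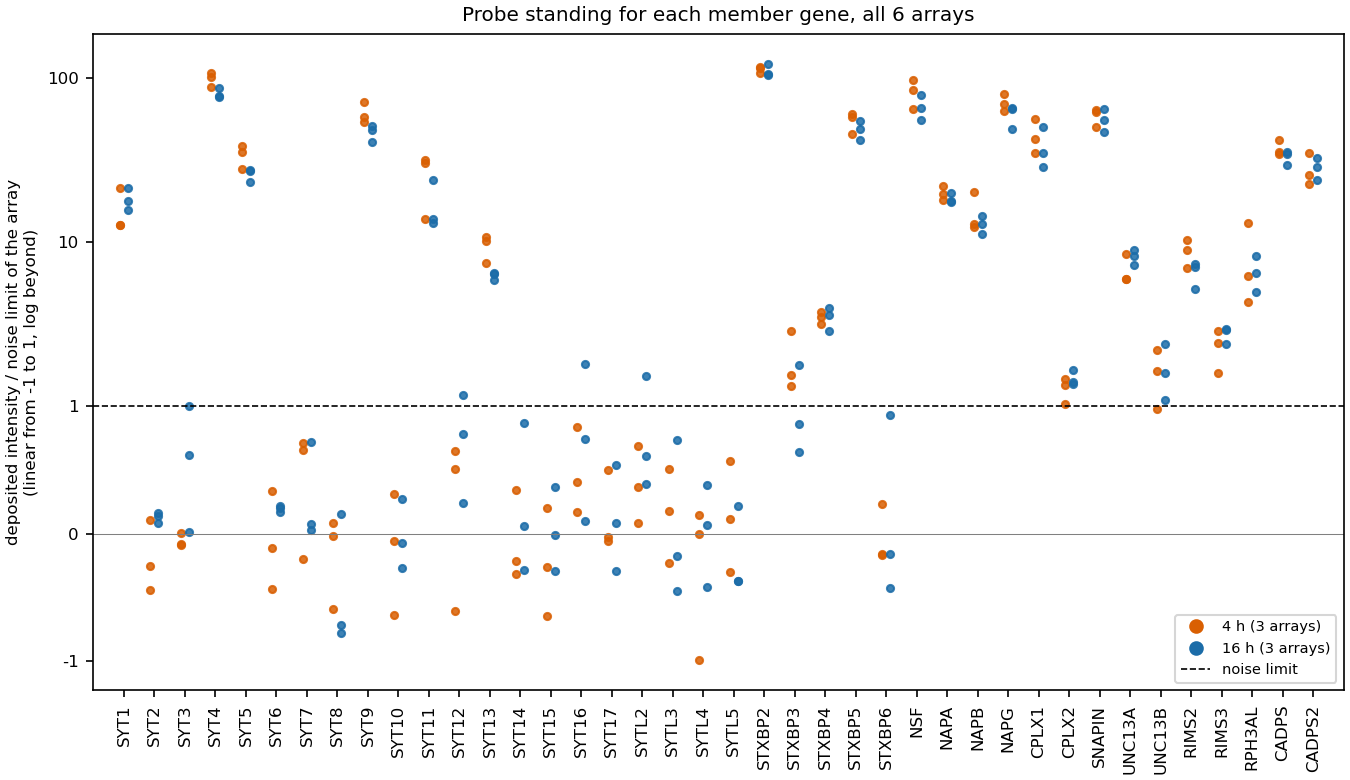
Deposited intensity of the probe that stands for each of the 40 measured genes, divided by the noise limit of its array (vertical axis, linear from -1 to 1 and logarithmic beyond). Each point is 1 array, with 4 h in orange and 16 h in blue. Points of SYT1, SYT4, SYT5, SYT9, SYT11 and SYT13 lie above the dashed limit on every array, those of the other synaptotagmins lie at or below it on at least 5 of 6 arrays, and nearly all genes of the other families except the synaptotagmin-like proteins and STXBP6 lie above it.

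Among the synaptotagmins, 6 of 17 were detected, SYT1, SYT4, SYT5, SYT9, SYT11 and SYT13, and all 6 lay above the limit on all arrays. SYT1, SYT5 and SYT9 encode calcium sensors of vesicle and granule fusion, whereas SYT4, SYT11 and SYT13 encode members that lack a full set of calcium-binding residues in their C2 domains. The other 11 genes, SYT2, SYT3, SYT6, SYT7, SYT8, SYT10, SYT12, SYT14, SYT15, SYT16 and SYT17, were not detected. Intensities of the undetected synaptotagmin probes ran from -10.0 to 16.5 units. SYT12 and SYT16 each exceeded the limit on 1 array.

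SYT7, a high-affinity calcium sensor of endocrine granules, depended on the name used. Its 3 probes under the present symbol lay above the limit on no array. A further probe, ILMN_2433119, was listed under the clone name B230112P13RIK, which the RefSeq gene table gives as a synonym of Syt7. It lay above the limit on all arrays, though which transcript it reads is not given in the array table. The 4 h intensities were 556, 459 and 606, those of 16 h were 302, 460 and 277. With such synonyms added, 25 genes were detected. The normalized change of this probe was 0.10 on the log2 scale (SE 0.12, limma adjusted p = 0.966), and the time points overlapped.

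The synaptotagmin-like proteins carry the same pair of C2 domains behind a RAB27-binding domain and tether granules. None of the 4 measured genes was detected, although SYTL2 came closest. Of its 5 probes, ILMN_1239019 read 9.2, 18.9 and 14.3 at 4 h and -8.2, -1.1 and -0.4 at 16 h. All 4 h values of this probe exceeded all 16 h values, but it passed the limit on only 2 arrays, both at 4 h, and no change is given for it. The other 4 probes of SYTL2 passed the limit on at most 1 array each.

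The other families were detected nearly in full. All 4 genes of the NSF and SNAP group, both complexins, all 8 priming and docking factors and 4 of 5 Munc18 and syntaxin-binding genes were detected. STXBP6, which encodes the syntaxin-binding protein amisyn, was the exception in the last group. Several of these detected genes were dim. CPLX2 lay between 12.6 and 17.8 units on every array, UNC13B exceeded the limit on 5 arrays, and STXBP3 on 4, all 3 at 4 h and 1 at 16 h, so that it met the rule through the time point where it was higher. Probes of 1 gene could disagree on detection: UNC13A was detected by ILMN_2421623 and not by ILMN_1251474, and CADPS2 by ILMN_2998313 and not by ILMN_2590164. The symbol UNC13A is also given by RefSeq as an older name of Unc13b, so the paralog behind these probes is less certain than for the other members.

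The second question was whether these genes differed between the time points. In the deposited intensities, all 24 detected genes had a higher 4 h mean (median log2 ratio 0.54), and in 8 of them the time points did not overlap. Over all detected probes the ratio was above 0 for 96.3%, with a median of 0.55, and 44.5% were higher at 4 h with no overlap. The list and the array as a whole were thus close in their shared rise in deposited values. After normalization, 11 of the 24 genes were above 0 and 13 below, with a median log2 change (4 h minus 16 h) of -0.01, against 0.0044 over all detected probes. With median scaling in place of quantile normalization, 15 were above the median detected probe and 9 below.

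No member passed the test. By limma with Benjamini-Hochberg adjustment over all 45281 probes, 0 of the 70 member probes were higher and 0 were lower at the threshold of 0.05, where 0.00442% of all probes were called higher and 0.00442% lower. The smallest adjusted p was 0.775 among the probes that stand for the 24 detected genes. Of the 35 detected member probes, an unadjusted p under 0.05 was reached by 4 in the direction of 4 h and 2 in that of 16 h, against 5.49% and 4.83% of all detected probes. Time points were free of overlap in 2 with 4 h above and 4 with 4 h below, against 6.10% and 5.33%. Over the 24 genes the log2 change lay between -0.36 and 0.27, and 19 of them changed by less than 0.2. The 95% interval lay within 0.5 of 0 in both directions for 20 genes. These sizes hold for the offset of 50, which compresses differences of dim probes. Without background correction, and leaving STXBP3 aside, the changes ran from -0.51 (RIMS3) to 0.36 (SYT13). UNC13A was at -0.51, SYT1 at -0.48 and CPLX2 at -0.36, and no member was called. STXBP3 read 0.73 in this setting. It passed the noise limit on only 1 array at 16 h and met the rule through 4 h, so no size is taken from that value. Smaller or dimmer changes were not resolved with 3 arrays per time point.

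**Figure D2:**
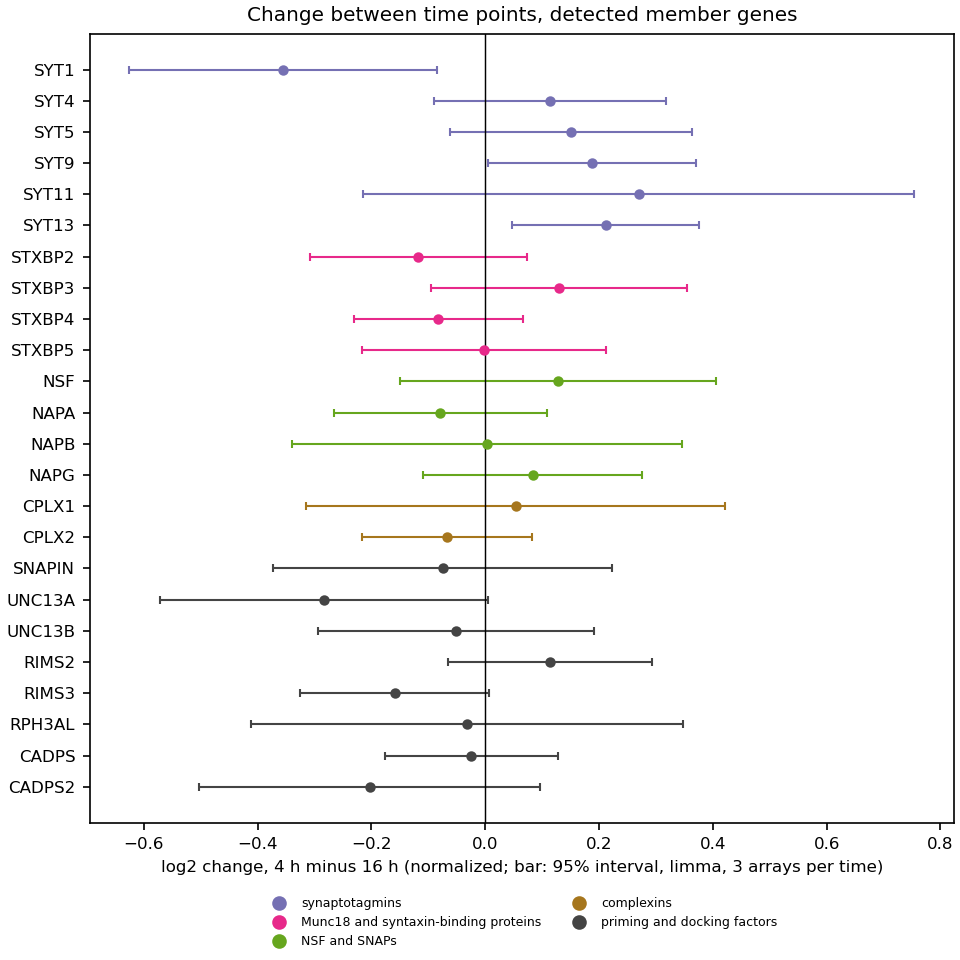
Log2 change of each detected gene (horizontal axis, 4 h minus 16 h, normalized intensities), coloured by family. Points are limma estimates and bars are 95% intervals from 3 arrays per time point. The bar crosses 0 for 21 of 24 genes; SYT1 lies below 0, and SYT9 and SYT13 lie above it before adjustment for the number of probes.

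SYT1, the fast calcium sensor first described in synaptic vesicles, had the lowest estimate of the list with the main processing. With median scaling, UNC13A, RIMS3 and CPLX2 were lower than SYT1. Without background correction, UNC13A and RIMS3 were lower than SYT1, and without 4 h replicate 2 UNC13A was. The SYT1 probe ILMN_1224963 read 7.60, 7.73 and 8.06 at 4 h and 8.07, 8.30 and 8.09 at 16 h on the normalized log2 scale. Every 4 h value of this probe lay below every 16 h value, by a narrow margin. The log2 change was -0.36 (SE 0.12, 95% interval -0.63 to -0.085, limma adjusted p = 0.775). A second probe, ILMN_2608416, also did not overlap, with 6.62, 6.54 and 6.65 at 4 h and 6.74, 7.13 and 6.85 at 16 h (change -0.30, SE 0.10, limma adjusted p = 0.758). The remaining probe, ILMN_1226085, lay near the limit and gave -0.10 (SE 0.084). In deposited units the main probe of SYT1 had a 4 h mean of 196 ± 58.4 (SD, n = 3) and a 16 h mean of 181 ± 39.4 (SD, n = 3), and these overlapped. Its log2 ratio in those units was 0.11, and that of ILMN_2608416 was -0.16, both below the 0.55 of the median detected probe.

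The other 5 detected synaptotagmins all had estimates above 0, as had 51.3% of all detected probes, though none passed the threshold. With median scaling, and relative to the median detected probe, SYT4 was at 0.26, SYT5 at 0.27 and SYT9 at 0.32, larger than the values given below, and none was called. SYT13, an atypical member without calcium binding, was at 7.43, 7.25 and 7.32 at 4 h and 7.08, 7.15 and 7.14 at 16 h, with no overlap. Its log2 change was 0.21 (SE 0.073, 95% interval 0.047 to 0.38, limma adjusted p = 0.800). SYT9, a calcium sensor of dense-core granules, was at 9.35, 9.48 and 9.57 against 9.27, 9.36 and 9.21, and its time points overlapped by a small amount. It changed by 0.19 (SE 0.081, limma adjusted p = 0.915). In deposited units SYT9 was at 767 ± 103 (SD, n = 3) and 461 ± 80.2 (SD, n = 3).

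SYT5, also found on dense-core granules, read 8.51, 8.86 and 8.77 at 4 h and 8.56, 8.60 and 8.53 at 16 h. Its lowest 4 h array lay below all 3 of the 16 h arrays, and the change of 0.15 (SE 0.094, limma adjusted p = 0.943) was not resolved and ran from 0.076 (without 4 h replicate 2) to 0.25 (without 4 h replicate 1). SYT4, a member of the Golgi and immature granules, read 10.30, 10.02 and 10.05 at 4 h and 10.08, 9.93 and 10.03 at 16 h. Its change was 0.11 (SE 0.090, limma adjusted p = 0.957), and the estimate rested largely on the first 4 h array: without it, the change was 0.02. The arrays were also split at the median 18S ribosomal RNA signal. The 3 arrays with high signal lay between 8.50 and 10.57 on the normalized log2 scale, the others between 6.91 and 7.71. SYT4 was higher without overlap on the 3 arrays with high 18S signal, by 0.15, and its change was 0.07 with a term for that separation in the fit.

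SYT11, which regulates membrane trafficking without binding calcium, had the widest spread of the family. Its main probe ILMN_3063644 read 8.61, 7.82 and 8.51 at 4 h and 8.40, 7.80 and 7.95 at 16 h. Its 3 high values fell on 4 h replicates 1 and 3 and 16 h replicate 1, which were the 3 arrays with high 18S signal, and on this probe those arrays were 0.65 above the others with no overlap. Among all detected probes, 10.3% were higher without overlap on those arrays and 9.31% were lower. Of the 24 detected member genes, 2 were higher and 2 were lower in this way, which is close to those shares. The log2 change between time points was 0.27 (SE 0.21, limma adjusted p = 0.957). It was 0.12 without 4 h replicate 1 and 0.51 without 4 h replicate 2, and it was 0.06 with a term for the 18S separation in the fit; the part of 18S signal in the result was otherwise not tested. The other probe, ILMN_3141334, read 7.37, 7.51 and 7.68 at 4 h and 7.37, 7.21 and 7.27 at 16 h and did not follow that separation. It gave a similar change of 0.23 with a smaller error (SE 0.091, limma adjusted p = 0.878).

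**Figure D3:**
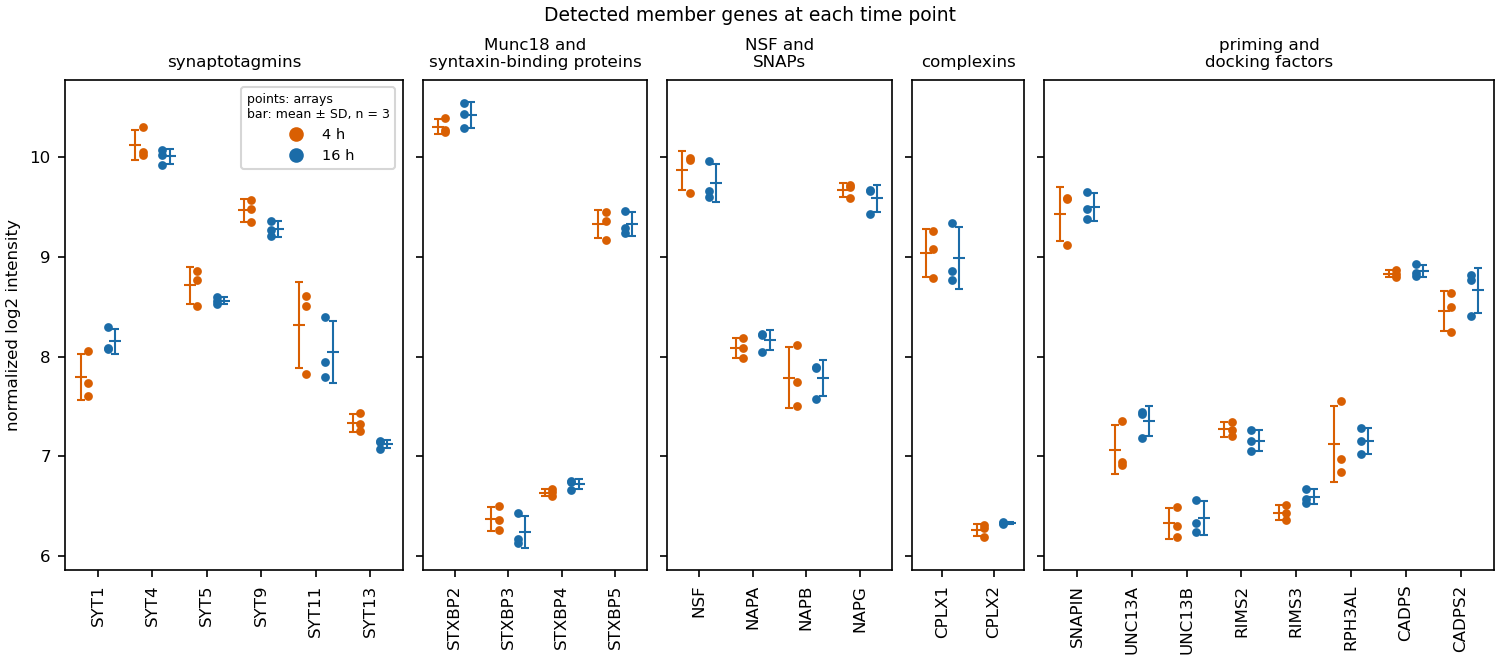
Normalized log2 intensity of the 24 detected genes (vertical axis) by family, with 4 h in orange and 16 h in blue. Points are single arrays and bars are mean ± SD (n = 3 per time point); heights of different genes come from different probes and are not comparable. Only SYT13 is higher and SYT1, CPLX2 and RIMS3 lower at 4 h without overlap.

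The priming and docking factors bring granules to a releasable state. Of the 8 genes, 7 had estimates below 0, with a median change of -0.06, and none passed the threshold. Of all detected probes, 51.3% had estimates above 0. The 95% interval of each of the 8 genes held 0, so the count does not settle a direction for the group. With median scaling, and relative to the median detected probe, RIMS2, CADPS and SNAPIN lay above 0 and the other 5 below. UNC13A, a Munc13 protein that opens syntaxin for SNARE assembly, read 6.94, 7.35 and 6.91 at 4 h and 7.18, 7.42 and 7.45 at 16 h. Time points overlapped, and the change was -0.28 (SE 0.13, 95% interval -0.57 to 0.0042, limma adjusted p = 0.919). This probe was lower on all 3 arrays with high 18S signal than on the other 3 (difference -0.40), and its change was -0.17 with the 18S term. UNC13B, its paralog, read 6.30, 6.49 and 6.19 at 4 h and 6.33, 6.24 and 6.56 at 16 h, with a change of -0.05 (SE 0.11) that ran from -0.14 (without 4 h replicate 2) to 0.045 (without 16 h replicate 3).

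CADPS and CADPS2 encode the CAPS proteins, which prime dense-core granules. CADPS had the narrowest range over the 6 arrays of the 24 detected genes, at 8.80, 8.83 and 8.87 at 4 h and 8.84, 8.93 and 8.81 at 16 h. Its change was -0.02 (SE 0.067, 95% interval -0.18 to 0.13, limma adjusted p = 0.985). CADPS2 varied more, at 8.25, 8.50 and 8.64 against 8.40, 8.82 and 8.77, with a change of -0.20 (SE 0.13, limma adjusted p = 0.946) that was -0.094 without 4 h replicate 1 and -0.34 without 16 h replicate 1. Both sets of values overlapped, so neither paralog separated the time points.

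RIM proteins link RAB3 on granules to the release site. RIMS2 read 7.27, 7.20 and 7.34 at 4 h and 7.15, 7.26 and 7.05 at 16 h, and had the only estimate above 0 in this group (0.11, SE 0.079, limma adjusted p = 0.949), which was 0.062 without 16 h replicate 3 and 0.17 without 16 h replicate 2. RIMS3, a short RIM protein without the RAB3-binding part, read 6.43, 6.36 and 6.51 at 4 h and 6.57, 6.53 and 6.67 at 16 h. All its 4 h values lay below all 16 h values, yet the probe was dim, at 29.2 ± 9.40 (SD, n = 3) and 27.0 ± 1.80 (SD, n = 3) deposited units. Its change was -0.16 (SE 0.073, limma adjusted p = 0.919).

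RPH3AL encodes Noc2, an effector of RAB3 and RAB27 on endocrine granules. It read 6.97, 6.84 and 7.55 at 4 h and 7.28, 7.16 and 7.02 at 16 h, and its highest and lowest values were both at 4 h. The change was -0.03 (SE 0.17), and with single arrays left out it ran from -0.24 (without 4 h replicate 3) to 0.11 (without 4 h replicate 2). SNAPIN, a SNAP25-binding protein that also serves lysosome-related organelles, read 9.59, 9.58 and 9.12 at 4 h and 9.65, 9.48 and 9.38 at 16 h on its bright probe (change -0.07, SE 0.13). Its dim probe gave 0.20 (SE 0.18), with a wide interval from -0.20 to 0.60. On the arrays with high 18S signal this dim probe was lower without overlap, with a difference of -0.36. The directions for Noc2 and snapin thus changed with the array or the probe used.

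Munc18 proteins hold syntaxins and guide SNARE assembly. STXBP2, the Munc18 protein of epithelial and secretory cells, read 10.40, 10.27 and 10.26 at 4 h and 10.29, 10.55 and 10.44 at 16 h, with a change of -0.12 (SE 0.084, limma adjusted p = 0.953) that ran from -0.19 (without 16 h replicate 1) to -0.056 (without 16 h replicate 2). STXBP3, the partner of syntaxin 4, read 6.50, 6.35 and 6.25 at 4 h and 6.17, 6.13 and 6.42 at 16 h. Its change was 0.13 (SE 0.099, limma adjusted p = 0.954) and ran from 0.060 (without 4 h replicate 1) to 0.23 (without 16 h replicate 3). It passed the noise limit on only 1 array at 16 h, so the size of this change is not settled. STXBP2 and STXBP3 both overlapped between the time points. With median scaling, and relative to the median detected probe, both turned direction, STXBP2 to 0.012 and STXBP3 to -0.052.

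STXBP5 encodes tomosyn, an inhibitor that occupies the place of the vesicle SNARE. Its bright probe read 9.46, 9.17 and 9.36 at 4 h and 9.29, 9.47 and 9.24 at 16 h, with a change of -0.0021 (SE 0.094, 95% interval -0.22 to 0.21) that ran from -0.066 (without 4 h replicate 1) to 0.076 (without 4 h replicate 2). Its dimmer probe gave 0.15 (SE 0.081, limma adjusted p = 0.924). Neither probe separated the time points after normalization.

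STXBP4, which encodes the syntaxin-4 binding protein Synip, had probes that fell on both sides of 0. Of those under the present symbol, the probe with the highest mean, ILMN_2753444, read 6.60, 6.67 and 6.63 at 4 h and 6.74, 6.75 and 6.66 at 16 h, with a change of -0.08 (SE 0.066, limma adjusted p = 0.957). This change was -0.21 without background correction and, relative to the median detected probe, -0.17 with median scaling. A second detected probe, ILMN_2788475, was higher at 4 h without overlap, at 6.42, 6.58 and 6.66 against 6.30, 6.39 and 6.39 (change 0.19, SE 0.080, limma adjusted p = 0.899). Another probe of the gene, ILMN_2742786, listed under the older name 6030470M02RIK, was likewise higher without overlap, at 7.03, 7.23 and 7.10 against 6.65, 6.95 and 6.81. Its change was 0.31 (SE 0.092, 95% interval 0.10 to 0.52, limma adjusted p = 0.679). This probe was brighter than ILMN_2753444, so with probes under older names included it would have stood for the gene, and the direction of STXBP4 would have turned. Its deposited intensity was 94.6, 83.8 and 94.6 at 4 h and 33.4, 52.1 and 34.3 at 16 h. Which transcripts of Stxbp4 each probe reads is not given in the array table, and the difference between the probes was not tested.

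**Figure D4:**
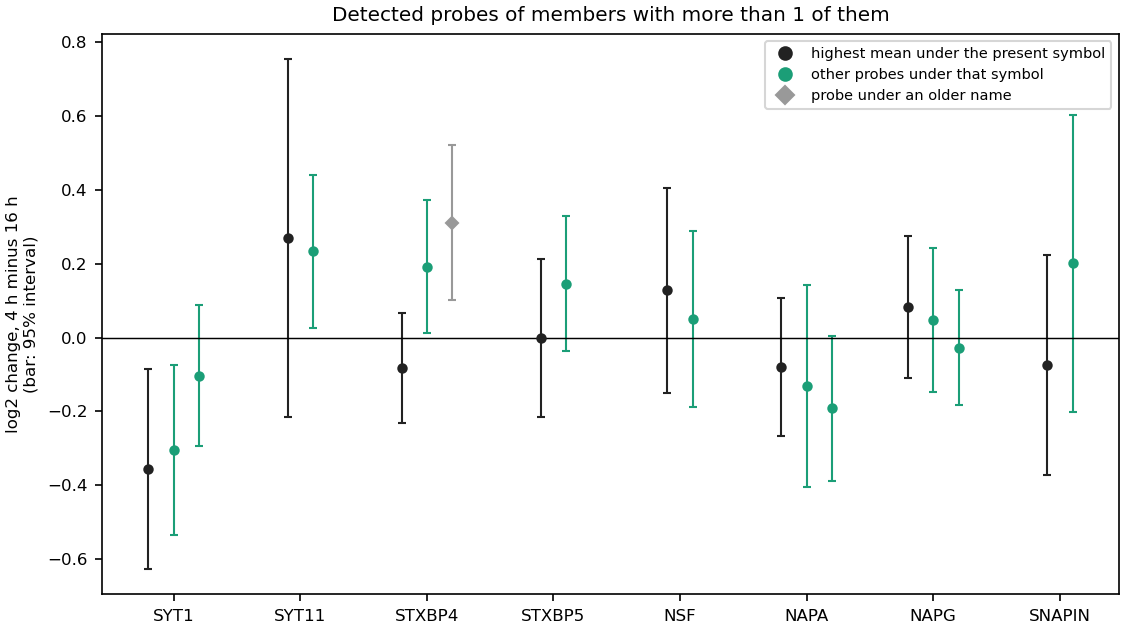
Log2 change (vertical axis, 4 h minus 16 h) of every detected probe of the 8 members with more than 1 of them, with 95% intervals as bars. Black points are the probes with the highest mean among those under the present symbol, green points the others under that symbol and the grey diamond a probe under an older name. The probes of SYT1, SYT11, NSF and NAPA share a direction within each gene, and those of STXBP4, STXBP5, NAPG and SNAPIN fall on both sides of 0.

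NSF and its adaptors recycle SNARE bundles after fusion. The brighter NSF probe read 9.97, 9.64 and 9.99 at 4 h and 9.66, 9.96 and 9.60 at 16 h, with a change of 0.13 (SE 0.12, limma adjusted p = 0.962). This was 0.058 without 16 h replicate 3 and 0.24 without 16 h replicate 2. The dimmer NSF probe, ILMN_1243464, exceeded the limit on 4 arrays and changed by 0.05 (SE 0.11). NAPA, α-SNAP, the main adaptor of NSF, read 7.99, 8.19 and 8.08 at 4 h and 8.05, 8.23 and 8.22 at 16 h, and was lower without overlap on the arrays with high 18S signal (difference -0.17). Its 3 probes changed by -0.08 (SE 0.083), -0.13 (SE 0.12) and -0.19 (SE 0.087), all below 0 and none past the threshold. With median scaling, and relative to the median detected probe, the first of these was 0.02. With the 18S term that first value was -0.024, and with single arrays left out it ran from -0.14 (without 16 h replicate 1) to -0.028 (without 4 h replicate 1).

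NAPB, the β-SNAP found mostly in nervous tissue, read 8.12, 7.74 and 7.51 at 4 h and 7.57, 7.90 and 7.88 at 16 h. A change of 0.0031 (SE 0.15) averaged a wide 4 h spread, and it ran from -0.16 (without 4 h replicate 1) to 0.14 (without 4 h replicate 3). NAPG, γ-SNAP, was measured by 3 bright probes that changed by 0.08, 0.05 and -0.03 (SE between 0.069 and 0.086). With single arrays left out, the first of these ran from 0.0048 to 0.13. All 3 were higher at 4 h without overlap in the deposited intensities and overlapped after normalization.

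Complexins bind the assembled SNARE bundle and hold it before calcium entry. CPLX1 read 8.79, 9.08 and 9.26 at 4 h and 8.86, 9.34 and 8.77 at 16 h, with a change of 0.05 and a wide error (SE 0.16, 95% interval -0.32 to 0.42) that ran from -0.058 (without 16 h replicate 3) to 0.23 (without 16 h replicate 2). CPLX2 read 6.19, 6.31 and 6.28 at 4 h and 6.34, 6.31 and 6.32 at 16 h, without overlap by a margin between 6.307 and 6.315. The offset of 50 in the background correction compresses differences of so dim a probe, and its change was -0.07 (SE 0.066, limma adjusted p = 0.962), or -0.030 without 4 h replicate 1.

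Other genes of exocytosis that are not on the list were measured beside it. Of 62 such genes, 52 had a probe and 33 were detected, with a median log2 change of 0.03. None was called by limma. An unadjusted p under 0.05 was reached by 2 above 0 and 1 below, against 5.49% and 4.83% of all detected probes. The smallest p in each direction belonged to EXOC7, a subunit of the exocyst tether, at 0.44 (SE 0.12, limma adjusted p = 0.561), and RAB3D, a granule GTPase, at -0.29 (SE 0.11, limma adjusted p = 0.878). RAB3D was also lower without overlap on the arrays with high 18S signal (difference -0.34). Of the partners of the listed genes, STX1A and VAMP2 were detected on all arrays. The probes named RIMS1, UNC13D and SNAP25 exceeded the limit on none, which does not show that these transcripts are missing. The paper lists Snap25 among the transcripts expressed in mGLUTag cells and recovered SCGN with SNAP25 by immunoprecipitation. The probes named SYT7 likewise exceeded the limit on no array, while a probe under an older name did.

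Since the time points were chosen for BMAL1, which binds the E-box CACGTG, the promoters of the members were read for these letters. RefSeq promoter windows (GRCm38.p6, 250 bases before to 50 after a start) were matched by symbol for 18 of the 24 detected genes, in 19 windows. Both strands are covered, since CACGTG is its own reverse complement. It occurred in 5 of the 19 windows (26.3%), those of CADPS2, NAPA, NSF, STXBP2 and UNC13B, and in 7.15% of all 32851 windows. Among windows of undetected members, 3 of 18 held it, 1 of SYT14 and 2 overlapping windows of SYT6 that share a single site. Windows of SYT1, SYT9 and SYT11 held none. The cAMP response element TGACGTCA, also its own reverse complement, occurred in the windows of NAPA and STXBP3 and in 1.79% of all windows. These are counts of letters and not of bound sites. The paper tested BMAL1 binding at noncanonical E-boxes of the Scgn promoter, which lay farther upstream than these windows reach. Such letters and positions were not searched, so a window without CACGTG does not show that sites of that kind are missing.

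The promoter of NAPA is shown in full before the start since it held 3 E-boxes, beginning 185, 136 and 29 bases before the start, and the others are shown around their single E-box. All are written 5′ to 3′ on the strand of the gene, with the E-box in capitals. They lie at chr7:16098330-16098579 (plus strand, NAPA), chr6:23839474-23839519 (minus, CADPS2), chr11:103954205-103954250 (minus, NSF), chr8:3631075-3631108 (plus, STXBP2) and chr4:43058703-43058745 (plus, UNC13B). In the RefSeq gene table, the gene spans begin at 16098202 for NAPA, 3630960 for STXBP2 and 43046193 for UNC13B. On the minus strand, that of CADPS2 begins at 23841175. The stretches of these genes thus lie inside the gene span, before a start that is not its outermost one. Only that of NSF lies outside it.
NAPA: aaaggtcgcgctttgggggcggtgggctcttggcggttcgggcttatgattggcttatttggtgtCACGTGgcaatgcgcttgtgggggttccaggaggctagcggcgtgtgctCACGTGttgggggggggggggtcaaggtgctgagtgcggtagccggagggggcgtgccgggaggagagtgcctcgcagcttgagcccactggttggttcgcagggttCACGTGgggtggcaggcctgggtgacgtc
CADPS2: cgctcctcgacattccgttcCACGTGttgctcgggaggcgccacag
NSF: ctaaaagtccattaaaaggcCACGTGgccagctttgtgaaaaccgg
STXBP2: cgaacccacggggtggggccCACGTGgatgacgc
UNC13B: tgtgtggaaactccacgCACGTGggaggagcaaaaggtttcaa

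The 5 genes whose windows held an E-box changed by -0.08 (NAPA), -0.20 (CADPS2), 0.13 (NSF), -0.12 (STXBP2) and -0.05 (UNC13B) between the time points, and none of these passed the threshold. They did not share a direction: 4 of the 5 estimates lay below 0. With median scaling, and relative to the median detected probe, 2 did (CADPS2 and UNC13B).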

How the data were processed

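Total RNA of 6 samples was hybridized by the authors to 1 mouse WG-6 BeadChip array each. The deposited intensity values are linear, have background subtracted and were not normalized between arrays; scanner settings, detection p-values and slides are not given in the sources used here. The limma package (3.58.1, R 4.3.3) served for normexp correction with an offset of 50, for quantile normalization and for the move to log2. Time was the only term of lmFit and eBayes, and p-values were adjusted over all 45281 probes. Changes are 4 h minus 16 h. The procedure was tested on simulated data. A gene with several probes was represented by that with the highest mean among those under its present symbol. All members were accounted for, changes were given for detected genes, and of other exocytosis genes the smallest p in each direction was named. The members and lists were chosen with earlier results of these data known. Alternatives covered background correction, offset, normalization, filter, variance model, weights, pairing, 18S signal, noise limit, probe choice and leaving out arrays. The number of arrays limits the precision, since arrays carry no counts.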

Additional observations from a re-analysis of the deposited data

How the results depend on the processing

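No member probe was called in any limma setting other than no normalization between arrays, which gave 5 higher (SYT5, SYT9, and 1 probe each of SYT11, STXBP4 and SYTL2) and 0 lower, of 70, where 2308 of all 45281 probes were called higher and 0 lower. The median detected probe was then 0.36 higher at 4 h, as it was 0.27 higher with median scaling, where 832 of all probes and 0 member probes were called. The gene values below are relative to those medians. With either setting the median member changed by 0.060, STXBP2 by 0.012, STXBP3 by -0.052, STXBP5 by 0.12, NAPA by 0.020, SNAPIN by 0.052 and CADPS by 0.10, each a turn of direction. With the mean of detected probes the median was 0.044, and STXBP4 (0.055), STXBP5 (0.072) and SNAPIN (0.063) turned. NAPB turned without background correction (-0.0031) and with cyclic loess (-0.011), STXBP5 with array weights (0.0023) and UNC13B with the 18S term (0.0028). With 1 array left out, the median ran from -0.048 to 0.035, NAPB from -0.16 to 0.14, RPH3AL from -0.24 to 0.11, STXBP5 from -0.066 to 0.076, CPLX1 from -0.058 to 0.23, SNAPIN from -0.16 to 0.079, UNC13B from -0.14 to 0.045 and CADPS from -0.050 to 0.011. The cause of these changes was not tested. In 13 genes, all detected synaptotagmins among them, no alternative turned the direction. Same-numbered arrays deviated together by correlations of 0.24, 0.17 and -0.47, so the numbers were not taken as pairs; with the replicate block, 0 member probes were called and the median was -0.01. Detection ranged from 22 genes (all 6 arrays required) to 25 (synonyms added). Intensities close to the noise limit bound what can be said of CPLX2, UNC13B and STXBP3.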
